A study of Mus musculus with 49 samples.

Results

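The hemoglobin genes Hba-a1, Hba-a2, Hbb-bs and Hbb-bt are 4 of the 9020 genes listed for 49 single cells, and all 4 were found in the table. They were chosen by their measured reads in these same cells, where some of them outnumbered every other transcript, so their levels, spread and mutual agreement are given as a description and without a test. Hba-a1 and Hba-a2 encode the alpha chain of adult mouse hemoglobin, and Hbb-bs and Hbb-bt encode its beta chain.

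The cells are neurons by the study's account and come from wild-type CD1 mice. Newborn cells had been pulse-labelled at E13.5 with FlashTag, a fluorescent dye taken up by cells dividing at the ventricle. The 49 cells were collected from the primary somatosensory cortex at P7 through a patch pipette (Patch-seq). Their cDNA was prepared with a SMART-Seq kit that reads the 3′ ends of transcripts. All 49 cells share 1 genotype, 1 treatment and 1 age, no animal is named, and only library pools 1 to 5 set them apart, with 9 to 12 cells each, so the cells were treated as 1 sample and no p-value was computed. The shallowest cell had 209850 recovered reads, the deepest 35342325, and the median was 1240101.

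Hemoglobin carries oxygen in red cells as a tetramer of paired alpha and beta chains, each holding a heme group. In mammals the genes of both chains are switched on together during the last divisions of erythroblasts, under factors that bind GATA and CACCC words, and mature mammalian red cells keep hemoglobin mRNA for a time after losing their nucleus. Alpha genes lie in a cluster on mouse chromosome 11 and beta genes in another on chromosome 7. In brain tissue hemoglobin RNA can come from blood in the vessels, and low amounts have also been described in neurons and glia. These data hold the RNA that entered the pipette and do not separate such sources.

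The neuronal identity given by the study was checked against 8 pan-neuronal genes, namely Snap25, Syt1, Stmn2, Map2, Tubb3, Rbfox3, Meg3 and Nefl. All 49 cells had at least 4 of the 8 at 100 RPM (the reads of a gene per 1000000 reads of the cell) or more. Over the reads that were not on hemoglobin genes, their summed level ran from 2370 RPM to 27665 RPM, with a median of 10065 RPM. It was 6591 RPM in the cell with the most hemoglobin reads, IL01 of pool 3. On the same scale 2 of the 8 genes, Syt1 and Nefl, were above their median over the cells in that cell and the other 6 below. Nefl, a neurofilament, was at 1506 RPM against a median of 163 RPM, and Snap25, a synaptic SNARE protein, at 146 RPM against 1108 RPM. Of 3 excitatory neuron genes, Slc17a7 was at 0 in that cell against a median of 37.1 RPM. Neurod2 was at 12.7 RPM against 64.0 RPM, and Neurod6 at 203 RPM against 64.2 RPM.

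On GRCm38 (GENCODE M21), Hba-a1 spans chr11:32283511-32284465 and Hba-a2 chr11:32296489-32297298 on the forward strand. Hbb-bs spans chr7:103826534-103828096 and Hbb-bt chr7:103812524-103813996 on the reverse strand. Each is a protein-coding gene with 3 exons. The main transcripts are 699, 554, 628 and 703 bases long in the order Hba-a1, Hba-a2, Hbb-bs and Hbb-bt. Within each chain the genes are near copies. The coding parts of Hba-a1 and Hba-a2 (429 bases) differ at 1 base, those of Hbb-bs and Hbb-bt (444 bases) also at 1, and neither difference changes a residue of the 142-residue alpha chain or the 147-residue beta chain. Alpha and beta chains were identical at 41.6% of alignment positions with gaps included (62 identical residues, 78 different and 9 gaps). The stretches that end at the differing base, with that base in capitals, show how little separates the members that were counted apart (5′ to 3′, coding bases 292 to 381 for alpha and 328 to 417 for beta, GENCODE M21).
Hba-a1: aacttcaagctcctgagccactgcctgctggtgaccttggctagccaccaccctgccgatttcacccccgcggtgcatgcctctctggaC
Hba-a2: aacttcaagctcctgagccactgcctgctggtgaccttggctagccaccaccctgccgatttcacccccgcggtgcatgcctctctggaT
Hbb-bs: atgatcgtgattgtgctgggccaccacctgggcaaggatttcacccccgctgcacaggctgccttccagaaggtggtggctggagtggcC
Hbb-bt: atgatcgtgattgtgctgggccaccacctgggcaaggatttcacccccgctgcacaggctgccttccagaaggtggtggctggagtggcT

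After the coding part, the 74 bases annotated for Hba-a1 were identical in Hba-a2, whose transcript runs 16 bases further. Hbb-bs and Hbb-bt differed there at 35 of 129 aligned bases. Of all 100-base windows in the last 300 bases of the transcript, the part that a 3′-end kit favours, 50.2% of those of Hba-a1 and 42.3% of those of Hba-a2 were found unchanged in the other alpha gene. For Hbb-bs the share found in Hbb-bt was 20.9%, and for Hbb-bt the share found in Hbb-bs was 20.4%. Reads from such windows cannot be assigned to 1 gene of the pair, and how the counting treated them is not given in the sources used here. The split within a chain is therefore uncertain, and the effect on the balance between the chains was not tested. Between the chains the coding parts were identical at 57.8% of positions, gaps included (Hba-a1 against Hbb-bs).

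The 250 bases before the RefSeq start sites (GRCm38.p6) are shown, 5′ to 3′ on the strand of the gene. Whether they bear on the levels in these cells was not tested. Capitals mark the words searched, on both strands. For the TATA box the word was TATAAA, with TATAAG allowed in its place and CATAAA allowed as well. For the CCAAT box it was CCAAT and for the site of Klf1-like factors it was CACCC. For the GATA site it was AGATAA, with AGATAG allowed in its place, and both were also accepted beginning with a different base, as TGATAA for the former and as TGATAG for the latter. Hba-a2 (chr11:32296242-32296491) stands for both alpha genes, since the 247 aligned bases of Hba-a1 were identical, while Hbb-bs (chr7:103827929-103828178) and Hbb-bt (chr7:103813924-103814173) matched at 178 of 243 aligned bases.
Hba-a2: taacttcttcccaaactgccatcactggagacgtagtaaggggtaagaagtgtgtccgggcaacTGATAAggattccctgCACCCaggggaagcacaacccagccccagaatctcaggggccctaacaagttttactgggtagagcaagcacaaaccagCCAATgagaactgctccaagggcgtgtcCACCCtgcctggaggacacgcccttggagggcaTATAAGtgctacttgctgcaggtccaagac
Hbb-bs: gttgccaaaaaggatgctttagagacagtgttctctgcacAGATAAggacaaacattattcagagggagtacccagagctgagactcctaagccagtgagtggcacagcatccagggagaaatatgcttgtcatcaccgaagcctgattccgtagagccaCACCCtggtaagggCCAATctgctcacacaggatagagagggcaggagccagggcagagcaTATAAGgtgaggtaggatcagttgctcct
Hbb-bt: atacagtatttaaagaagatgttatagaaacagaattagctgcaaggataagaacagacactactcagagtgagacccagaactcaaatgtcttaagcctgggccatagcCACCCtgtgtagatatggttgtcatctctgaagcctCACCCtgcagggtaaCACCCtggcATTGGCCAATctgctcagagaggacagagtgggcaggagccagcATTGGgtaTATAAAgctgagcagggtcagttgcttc

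A TATA word began 27 to 30 bases before the start site in all 4 genes, and every window held CCAAT and CACCC words. A GATA word of the 4 searched was found for Hba-a1, Hba-a2 and Hbb-bs. In Hbb-bt the inverted and the forward CCAAT word overlap in ATTGGCCAAT. Of 27025 RefSeq start regions, 25.7% held a TATA word, 34.5% CCAAT, 51.3% CACCC and 27.1% a GATA word, so most of these words are common on their own. GENCODE holds transcripts that begin inside these windows for all 4 genes.

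Hemoglobin transcripts were read in every cell. Hba-a1, Hbb-bs and Hbb-bt had at least 1 read in 49 of 49 cells (100%). Of all 9020 genes, 8.1% were read in every cell, and 3 of the 4 members were among them. Hba-a2 was read in 40 of 49 cells (81.6%) and had 0 reads in the other 9. At the depth of the shallowest cell, 47.5 cells would be expected to show Hba-a1, 48.9 Hbb-bs, 44.6 Hbb-bt and 31.02 Hba-a2. Each would thus still be read in most cells, Hba-a2 in the fewest. At a limit of 10 RPM the numbers were 46 cells for Hba-a1, 26 for Hba-a2, 49 for Hbb-bs and 41 for Hbb-bt.

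The level of each member spanned several orders of magnitude between cells. Hbb-bs, the more abundant beta gene, ranged from 13.504 to 480183 RPM, with a median of 578 RPM. Hba-a1 ranged from 2.72 to 131144 RPM, with a median of 123 RPM. Hbb-bt ranged from 1.16 to 76551 RPM, with a median of 149 RPM. Hba-a2 ranged from 0 to 6953 RPM, with a median of 12.6 RPM. The order of the medians was thus Hbb-bs, Hbb-bt, Hba-a1 and Hba-a2. In that order the quartiles were 201 to 2231, 22.2 to 515, 43.1 to 501 and 0.355 to 45.9 RPM. They overlapped between neighbours, and they leave out that all genes were read in the same cells. By the highest level reached in any cell, Hbb-bs ranked 1 among all 9020 genes, Hba-a1 ranked 3, Hbb-bt ranked 5 and Hba-a2 ranked 63. At least 1% of the reads of some cell fell on 3 of the 4 members, where 0.333% of all genes reached that level. Those ranks describe the choice of the genes, since they were chosen for such values.

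**Figure D1:**
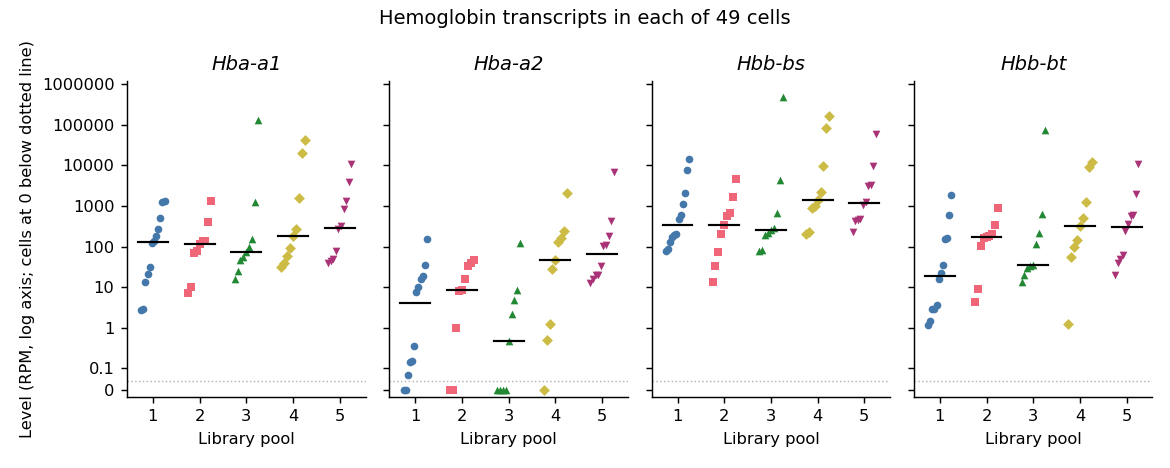
Level of each hemoglobin gene in every cell, in RPM on a log axis, by library pool, with cells at 0 drawn below the dotted line and the pool median as a black bar. In each pool the cells spread over 2 or more orders of magnitude for Hbb-bs, from 13.504 to 480183 RPM over all, and the 9 cells without Hba-a2 reads lie in pools 1 to 4.

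A few cells held most of the hemoglobin reads. The summed share of reads on the 4 genes had a median of 0.0894% and ran from 0.00278% in IL09 of pool 2 to 68.8% in IL01 of pool 3. The next cells were IL03 of pool 4 at 21.6%, IL01 of pool 4 at 11.6%, IL06 of pool 5 at 8.97%, IL02 of pool 1 at 1.55%, IL05 of pool 5 at 1.55%, IL05 of pool 4 at 1.25% and IL10 of pool 1 at 1.09%. These 8 cells were the ones at 1% or more, while 22 cells reached 0.1% and 3 reached 10%. Cells with high shares therefore came from 4 of the 5 pools, and pool 2 held none above 0.680%. When each cell was weighted equally, the top cell carried 56.5% of the summed hemoglobin RPM, the 4 highest 91.1% and the 8 highest 95.6%. Hbb-bs was the most abundant of all genes in 4 cells.

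**Figure D2:**
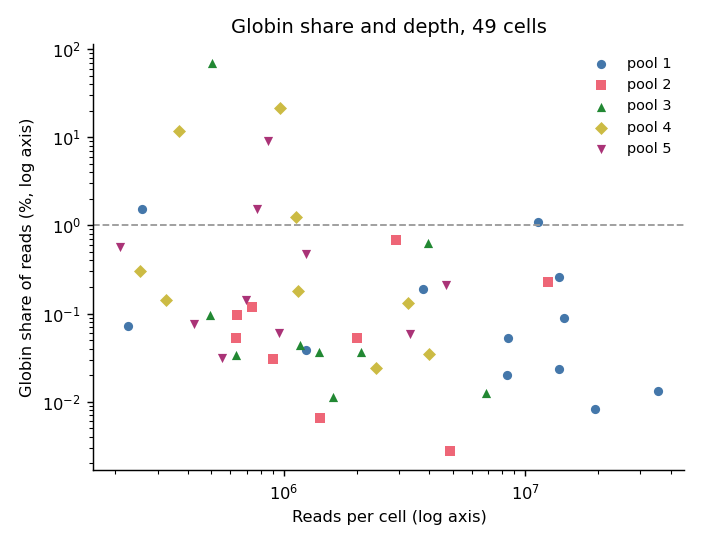
Share of the reads of each cell on the 4 hemoglobin genes, in percent, against the reads per cell, both on log axes, with a symbol per library pool and a dashed line at 1%. The 8 cells above the line include IL10 of pool 1 with 11295087 reads, the other 7 have 1119611 reads or fewer, and the lowest share, 0.00278%, belongs to a cell with 4887352 reads.

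Library pool and depth were set beside the hemoglobin share. Differences between pools made up 12.6% of the variance of log2(globin RPM + 1), or 20.03% without the cell with the most hemoglobin, while 8.33% is the average for pools that play no part. By gene they made up 9.15% for Hba-a1, 31.1% for Hba-a2, 14.9% for Hbb-bs and 15.8% for Hbb-bt. Over the 49 cells the share correlated with the reads per cell at a Spearman rho of -0.36 (Pearson r = -0.35 on log scales), and the reads per cell are themselves the denominator of the share. Computed against the reads not on hemoglobin genes, rho was -0.38. Within pools 1 to 5 rho was -0.42, 0.12, -0.43, -0.62 and -0.04, so the relation was not seen in every pool. Cells in which more genes were detected tended to lower shares (rho = -0.33, n = 49). By the study's methods each pool mixed cells of several collection days and depths in the cortex, and neither day nor animal is labelled per cell.

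Cells sequenced in 1 pool can exchange reads, and the hemoglobin reads of a pool sat mostly in 1 cell. The top cell held 61.8% of those of pool 1 (IL10), 55.0% of those of pool 2 (IL03), 92.5% of those of pool 3 (IL01), 75.9% of those of pool 4 (IL03) and 70.2% of those of pool 5 (IL06). The cell with the fewest had 0.0824%, 0.181%, 0.0483%, 0.168% and 0.159% as many reads as the other cells of its pool together. In 24 of 49 cells the reads came to less than 1% of those of the other cells of the pool. The part of exchanged reads in the low levels was not tested here. The alpha share of a cell lay at a median of 4.18 percentage points from that of the summed reads of the rest of its own pool. Its distance to each of the other pools, averaged over them, had a median of 5.11 points. The first distance was the smaller in 34 of 48 cells. A single distance and an average of distances are not alike, so such counts do not show that cells resemble their own pool. For Hbb-bs within beta the distances were 7.29 and 6.49 points, with the first smaller in 26 of 46 cells. For Hba-a1 within alpha they were 11.1 and 11.5 points, with the first smaller in 20 of 34 cells.

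Alpha and beta transcripts varied together over the cells. On log2(RPM + 1), summed alpha and summed beta levels correlated at r = 0.94 and Spearman rho = 0.89 (n = 49 cells, which share pools and the total that each is scaled to). Within pools r was 0.75, 0.98, 0.98, 0.99 and 0.98 for pools 1 to 5. A line of log2 alpha on log2 beta had a slope of 0.96, so over all cells the ratio changed little from cells with few to cells with many reads. Within pools the alpha share moved differently with the hemoglobin share, as given below. Among single genes the closest pair was Hba-a1 with Hbb-bs, 1 gene of each chain (r = 0.92). Hba-a1 with Hbb-bt and Hbb-bs with Hbb-bt followed, at 0.86 and 0.85. Hba-a2 correlated at 0.67 with Hbb-bs, at 0.64 with Hbb-bt and at 0.57 with Hba-a1, its near copy.

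**Figure D3:**
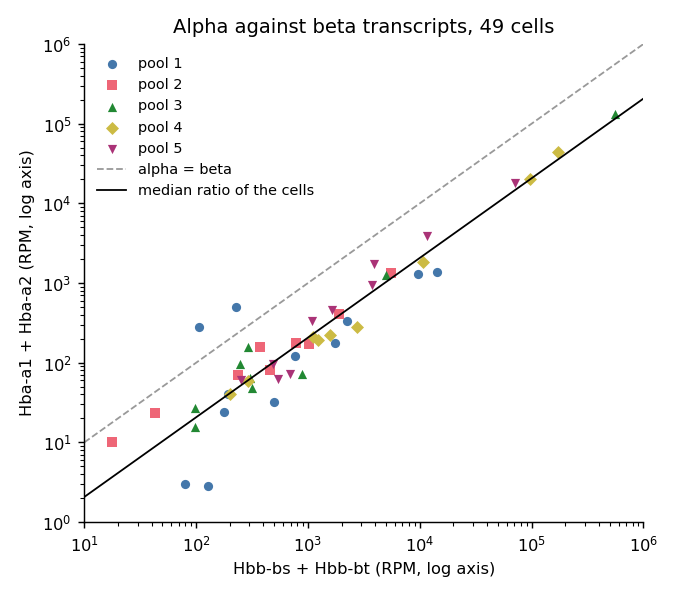
Summed alpha level (Hba-a1 and Hba-a2) against summed beta level (Hbb-bs and Hbb-bt) of each of 49 cells, in RPM on log axes, with a symbol per pool, a dashed line where both are equal and a solid line at the median beta-to-alpha ratio of 4.84. Most cells follow the solid line over 4 orders of magnitude, and 2 cells of pool 1 lie above the dashed line.

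Beta reads outnumbered alpha reads in nearly all cells. In the 48 cells with at least 100 hemoglobin reads, alpha genes made up a median of 17.1% of them (quartiles 12.8% and 20.7%), which is a median of 4.84 beta reads to 1 alpha read. When the reads of all cells were summed, the alpha share was 17.9%. Per kilobase of transcript the median was 16.02%. The share was between 10% and 30% in 34 cells, below 10% in 8 and above 30% in 6. The exact 95% interval lay wholly below 50% in 46 of the 48 cells and wholly above it in 2. In the last 300 bases, windows shared within the pair were more frequent for Hba-a1 (50.2%) and Hba-a2 (42.3%). For Hbb-bs and Hbb-bt they made up 20.9% and 20.4%. How the counting of reads from such windows bears on the alpha share was not tested.

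The 4 cells with the most hemoglobin had similar alpha shares. IL01 of pool 3 had 66136 reads of Hba-a1, 63 of Hba-a2, 242157 of Hbb-bs and 38605 of Hbb-bt, an alpha share of 19.1% (18.9% to 19.2%). IL03 of pool 4 had an alpha share of 20.5% (20.3% to 20.6%). IL01 of pool 4 stood at 17.2% (16.8% to 17.6%), and IL06 of pool 5 at 20.1% (19.8% to 20.4%). They thus lay within 4 percentage points of each other, although their intervals do not all overlap.

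Other cells departed widely from the median. The largest shares were 72.4% (68.2% to 76.4%) in IL09 of pool 1, with 344 Hba-a1, 111 Hbb-bs and 20 Hbb-bt reads, and 68.9% (61.2% to 75.9%) in IL12 of pool 1, with 113, 46 and 5. Both had 0 Hba-a2 reads. The smallest shares were 2.18% (1.78% to 2.64%) in IL07 of pool 1, the deepest cell, with 96 Hba-a1, 5 Hba-a2, 4486 Hbb-bs and 53 Hbb-bt reads, and 3.66% (2.80% to 4.70%) in IL01 of pool 1. Both extremes were thus found in pool 1. Over the 48 cells the SD was 13.04 percentage points, where counting alone would give 1.47 points, and the interval of 38 cells did not include the median. Among the 27 cells with at least 1000 hemoglobin reads the SD was 6.33 points and the range 2.18% to 30.7%, so the high extremes came from cells with fewer reads. The kit has no molecular identifiers, and the number of molecules behind the reads is unknown.

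**Figure D4:**
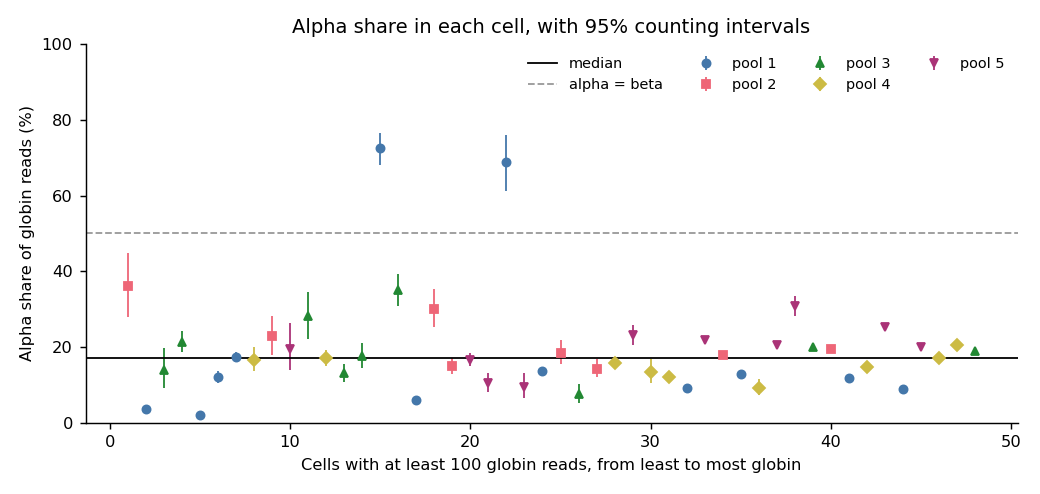
Alpha share of the hemoglobin reads, in percent, with exact 95% counting intervals, in the 48 cells with at least 100 such reads, ordered from the lowest to the highest hemoglobin share of the cell. The black line is the median of 17.1% and the dashed line marks 50%, which only 2 cells of pool 1 exceed, while the 4 cells on the right lie between 17.2% and 20.5%.

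The median alpha share was lowest in pool 1, which also held the 2 cells above 50%. Its medians over pools 1 to 5 were 11.97%, 19.03%, 19.1%, 15.8% and 20.3%, and over the summed reads of each pool it was 11.9%, 18.6%, 19.1%, 19.5% and 20.8%. Of its variance, 2.61% lay between pools, beside 8.51% for pools that play no part. Without the 2 cells of pool 1 above 50%, an alternative added after seeing the data, 35.001% lay between pools, beside 8.89%. It correlated with the hemoglobin share at rho = 0.02 and with the reads per cell at rho = -0.24 (n = 48). The latter was 0.12 without pool 1, which held the deepest cells. With the hemoglobin share, rho was 0.17, -0.62, -0.03, 0.18 and 0.64 within pools 1 to 5.

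Within each chain 1 gene prevailed, with a wide spread between cells. Hba-a1 had 92.8% of all alpha reads and Hbb-bs 87.4% of all beta reads. Of all hemoglobin reads, 71.7% were on Hbb-bs, 16.7% on Hba-a1, 10.4% on Hbb-bt and 1.30% on Hba-a2. In the 34 cells with at least 100 alpha reads, the Hba-a2 share of them had a median of 4.91% and an SD of 17.2 percentage points, where counting alone would give 1.93 points. It was below 1% in 10 cells, at least 10% in 15 and at least 25% in 7. In the 46 cells with at least 100 beta reads, the Hbb-bt share had a median of 13.9% and an SD of 13.1 points, against 1.45 points from counting.

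The Hba-a2 share differed widely even among cells with many reads. In the 4 cells with the most hemoglobin it was 0.0952% (63 of the alpha reads of IL01 of pool 3), 4.87% in IL03 of pool 4, 0.231% in IL01 of pool 4 and 38.6% in IL06 of pool 5, where 5966 reads of Hba-a2 stood beside 9486 of Hba-a1. The range among these 4 cells was thus more than 38 points, while their summed alpha shares differed by less than 4. In the deep cells of pool 1 the share also ranged widely, at 46.7% in IL11, 47.04% in IL04 and 42.9% in IL03, against 1.25% in IL10 and 0.0564% in IL08, which had 1 Hba-a2 read beside 1772 of Hba-a1. Among the 34 cells with at least 100 alpha reads the highest share was 57.9%, in IL02 of pool 4. With fewer alpha reads, IL09 of pool 4 had 83.9% (52 of its reads) and IL06 of pool 2 had 69.7% (23 reads). In the 14 cells with at least 1000 alpha reads the SD was still 17.1 points.

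The Hbb-bt share ran from 0.246% in IL02 of pool 1, with 9 Hbb-bt and 3643 Hbb-bs reads, to 68.5% in IL07 of pool 2, with 146 and 67. IL07 of pool 2 was the 1 cell in which Hbb-bt reads outnumbered those of Hbb-bs. In the 4 cells with the most hemoglobin the share was 13.8%, 5.47%, 12.5% and 14.8%. Its medians over pools 1 to 5 were 3.61%, 26.1%, 13.8%, 11.5% and 14.7%, and 30.5% of its variance lay between pools, beside 8.89% for pools that play no part. For the Hba-a2 share of alpha reads these percentages were 9.03% and 12.1%. The 2 shares did not move together (rho = -0.03, n = 33 cells with enough reads of both chains). Reads that fit both genes of a pair may enter these shares, and their part was not tested.

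**Figure D5:**
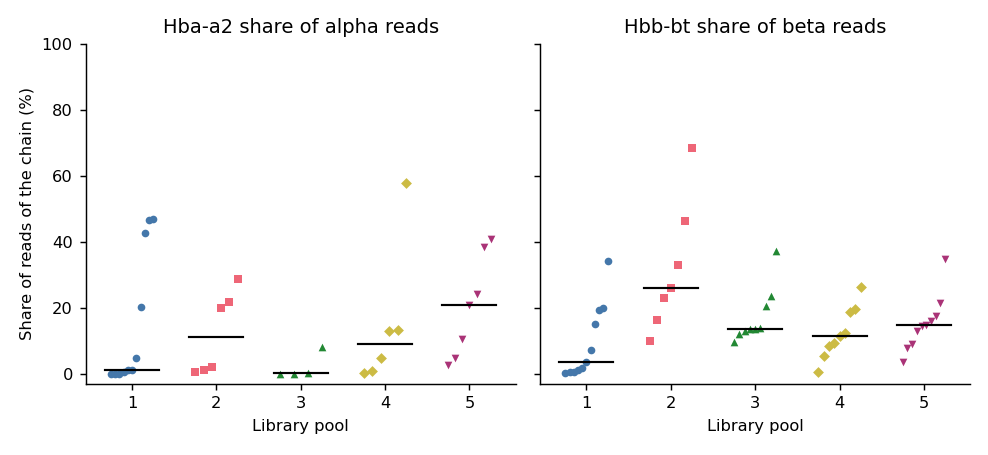
Hba-a2 share of the alpha reads (34 cells) and Hbb-bt share of the beta reads (46 cells), in percent, by library pool, each point 1 cell with at least 100 reads of the chain and each bar the pool median. Hba-a2 runs from 0% to 57.9%, and the medians of Hbb-bt run from 3.61% in pool 1 to 26.1% in pool 2.

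Other genes of the red cell were mostly not listed in the table or did not follow hemoglobin. Of a list of 30 red cell genes, 14 are in the table, and among the 16 that are not listed are Alas2, the erythroid enzyme of the first step of heme synthesis, Slc4a1, the band 3 anion exchanger, Ahsp, which binds free alpha chains, and the erythroid factors Klf1 and Gata1. A gene is listed where it reached 100 RPM in at least 2 cells. Of the 14, 10 were read in at least 25 cells, and their median correlation with the hemoglobin share was rho = -0.03, where the median over all 7265 genes so ranked was -0.12. These correlations were computed on RPM relative to the reads that were not on hemoglobin genes. The summed level of the 14 genes correlated at rho = -0.06.

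In the cell with the most hemoglobin, IL01 of pool 3, several red cell genes stood at their highest. Bpgm, which makes the 2,3-bisphosphoglycerate that lowers the oxygen affinity of hemoglobin, was at 2778 RPM there and at a median of 6.17 RPM over the cells. Mkrn1, a ubiquitin ligase, was at 2064 RPM, against a median of 301. Isg20, an exonuclease, was at 984 RPM and Slc25a37, the mitochondrial iron importer of erythroid cells, at 317 RPM, each with a median of 0. These 4 of the 14 listed red cell genes had their highest RPM in this cell, which was so for 0.61% of all listed genes outside the members. In RPM over the reads not on hemoglobin genes the number was 8 of the 14, beside 3.31% of those genes. In IL03 of pool 4, IL01 of pool 4 and IL06 of pool 5, Bpgm was at 0, 5.45 and 223 RPM, and Isg20 was at 0 in all 3. Of the other list members that reached 100 RPM in 1 of the 4 cells, Fech, which inserts iron into heme, was at 448, 76.5, 2.72 and 218 RPM in the order of falling hemoglobin share. Blvrb, biliverdin reductase B, was at 274, 374, 0 and 239 RPM, and Car2, a carbonic anhydrase, at 216, 71.3, 0 and 396 RPM. Prdx2, Bnip3l and Cat also reached this level, and Prdx2 and Mkrn1 were read in all 49 cells. In total, 11 of the 14 reached it, which 48.1% of all listed genes outside the members did too.

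The remaining lists gave little that moved with hemoglobin. Of 9 heme synthesis genes 7 are listed, 5 of them reached 100 RPM in 1 of the 4 cells, among them Alas1, Alad, Cpox and Fech, and the median rho of the 6 ranked was -0.0039. Alas1, an enzyme of the first step, did so in IL01 of pool 4, at 229 RPM, and Alad and Cpox in IL06 of pool 5, at 457 and 267 RPM. Of 17 heme and iron handling genes 9 are listed, with a median rho of -0.13 for 8 ranked, and the ferritin chains Fth1 and Ftl1 had rho of 0.28 and 0.26. Over the reads not on hemoglobin genes, they stood at 5580 and 2606 RPM in the cell with the most hemoglobin, against medians of 3671 and 773 RPM. Of 12 other globins only Ngb, neuroglobin, and Cygb, cytoglobin, are listed, and neither reached 100 RPM in the 4 cells. The embryonic globins Hba-x, Hbb-y and Hbb-bh1 are not among the listed genes.

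Markers of cells of blood and vessels were thinly covered, with 3 of 14 endothelial, 1 of 8 mural, 1 of 7 neutrophil and 0 of 6 platelet genes listed. Flt1, an endothelial VEGF receptor, and Itm2a had their highest levels, 771 and 748 RPM, in IL03 of pool 4, the cell with the second highest hemoglobin share, and stood at 173 and 258 RPM in IL01 of pool 3. Ramp2, the other listed endothelial gene, was at 2.07 RPM in IL03 of pool 4 and at 0 in the other 3, and correlated at rho = -0.33. Rgs5, a pericyte gene, was at 298 RPM in IL03 of pool 4 and at 0 in the other 3. Its highest level, 1949 RPM, was in IL08 of pool 5, where the hemoglobin share was 0.563%. S100a9, a neutrophil gene, had its highest level, 226 RPM, in IL06 of pool 5. Over all cells the summed endothelial level correlated with the hemoglobin share at rho = -0.15, from 0 to 1521 RPM, and Rgs5 alone at rho = 0.22. What these RNAs contribute to the hemoglobin reads was not tested.

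The gene outside the members whose level followed the hemoglobin share most closely was Csmd2, which encodes a transmembrane protein with CUB and sushi domains. Its rho was 0.74 over the 49 cells, 0.72 without the cell with the most hemoglobin, and 0.64, 0.67, 0.43, 0.88 and 0.48 within pools 1 to 5. It was read in 49 of 49 cells. Its level had a median of 48.7 RPM and was 4103, 1136, 921 and 1022 RPM in the 4 cells with the most hemoglobin. In those cells it had 0.596, 0.526, 0.791 and 1.14 reads per 100 hemoglobin reads, while over all cells this ratio ran from 0.314 to 126, with a median of 3.25. Csmd2 lies at chr4:127987857-128567656 and overlaps 3 annotated genes, Csmd2os, Hmgb4 and Hmgb4os, so reads of this region are uncertain where the counting strand is not given. No 30-base word of its annotated transcripts was shared with the 4 hemoglobin transcripts.

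Next came Gm10801 (rho = 0.59), Gm10800 (0.55), Col1a2 (0.52), Gm22567 (0.50), Gm42535 (0.49), Tmem170 (0.49), Col1a1 (0.48), Atxn1 (0.47) and Rps14 (0.47), and the lowest rho of all was -0.60, for Ptdss1. Col1a1 and Col1a2 encode the chains of type I collagen. Col1a1 was highest, at 726 RPM, in the cell with the most hemoglobin, while Col1a2 was highest, at 1678 RPM, in IL09 of pool 1, the cell with the largest alpha share. Gm10801 and Gm10800, neighbouring predicted genes on chromosome 2, were both highest in IL01 of pool 5, at 2567 and 6327 RPM, where the hemoglobin share was 0.0769%. None of these genes shared a 30-base word with the hemoglobin transcripts.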

How the data were processed

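RNA of 49 cells was measured in 5 library pools. The authors prepared 3′-end SMART-Seq cDNA, aligned reads to GRCm38 (mm10) with STAR, counted with HTSeq and deposited RPM values for 9020 genes, each at 100 RPM or more in at least 2 cells. Tool versions, annotation, strand and the treatment of reads that fit several genes are not given in the sources used here. Division by what 1 read is worth in a cell gave whole reads for 100% of values above 0 (within 0.01), so depth per cell and exact Clopper-Pearson intervals at 95%, which cover counting error only, were computed. Shares needed 100 reads. Log scales had a pseudocount of 1. The kit counts no molecules, and no column of another series was used.

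The members, gene lists and comparisons were chosen with earlier results of these data known. Genes named are the members, list genes at 100 RPM in 1 of the 4 cells with the most hemoglobin, and the 10 genes whose RPM over reads not on hemoglobin genes had the highest Spearman correlation with the hemoglobin share, among those read in at least 25 cells. Vessel and blood cell markers, excitatory neuron genes, Ptdss1 and cells named singly were picked after their values were seen. Some list genes are not reported here by name. The steps were tested on simulated data. Alternatives were other read minimums, pseudocounts, denominators, correlation measures and lengths, and leaving out each pool or the top cell. Alignments used Biopython 1.88, intervals scipy 1.17.1 and tables pandas 2.3.3, all under Python 3.11.15.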

Additional observations from a re-analysis of the deposited data

How the results depend on the processing

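Of 114 values recomputed under alternatives, 104 stayed within the spread between cells or pools, or within 1.5 times for counts, SDs and shares of variance. These limits are wide, so the 104 say little about stability. For the median hemoglobin share of 0.0894% the spread was 10.3 percentage points, which no alternative came near. That median ran from 0.0666% without pool 4 to 0.108% without pool 3. Cells at 1% or more of reads on hemoglobin genes numbered 8, against 22 at a limit of 0.1% and 3 at 10%, and 5 to 8 with 1 pool left out (5 without pool 4). Hba-a2 was read in 40 cells and reached 10 RPM in 26. The correlation of alpha share with depth was -0.24 and ran from -0.36 to 0.12 with 1 pool left out, 0.12 being the value without pool 1. The pool's share of the variance of log2(globin RPM + 1) was 12.6%, 20.03% without the cell with the most hemoglobin, and 8.41% (without pool 4) to 17.1% (without pool 3) with 1 pool left out. For the alpha share it was 2.61%, and 35.001% without the 2 cells above 50%, chosen after seeing the data. At a minimum of 1000 reads the SD over cells fell to 6.33 points for the alpha share and to 8.21 points for Hbb-bs within beta. The alpha to beta correlation stayed between 0.89 and 0.98, and of the 10 genes most like hemoglobin 7 to 9 were kept under each alternative. The cause was not tested. No paired analysis was possible because only 1 condition exists. The number of molecules behind the reads is not known.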
